A study of Sus scrofa with 21 samples.

Results

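The enzymes that take glucose to pyruvate and lactate, run the pentose phosphate pathway and turn the TCA cycle were read in whole blood of 2 pig breeds. A list of 48 genes was chosen by pathway, and the array probes that carry a member's gene name were taken. Of the 48 genes, 41 had a probe and 39 passed a filter on low signal, among 34393 genes or unnamed probes tested in all. IDH1 and FH were left out as dim. PFKL, PFKP, PGAM1, BPGM, PFKFB2 and OGDH had no probe under their name, and PKM was read under its array name PKM2. The 39 tested genes rested on 121 probes of 60 bases. Of these probes, 8 lie on the strand opposite to the coding sequence, judged by translating both strands, and so do not read the enzyme's mRNA. They belong to GPI, LDHA, PDHB, PDK1, PDK2, SUCLG1, IDH3G and PGLS, had mean log2 signals of 3.99 to 6.73 and stayed in the averages below unless stated. IDH3G and PGLS had no other probe, nor did IDH1, whose dim probe was of the same kind.

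The pigs were 10 DD pigs (breed label SLAdd) and 11 Large White (LW) pigs, all 60 days old and fed a standard diet without restriction. The DD line is an inbred minipig line kept homozygous at the SLA locus, the pig's major histocompatibility locus, and the DD pigs stood for a single herd. Blood RNA of each pig was hybridised to its own one-colour array. The DD pigs came from 5 litters and the LW pigs from 6, and the arrays lay on 3 chips that each held both breeds (3 DD and 4 LW, 4 and 4, and 3 and 3). Array brightness (log2 of an array's 75th percentile, before normalization) was 7.53 ± 0.54 (SD, n = 10) in DD and 8.22 ± 0.38 (SD, n = 11) in LW pigs. On chip 1 the breeds had a mean brightness of 7.95 (DD) and 8.02 (LW), on chip 2 of 7.55 and 8.31, and on chip 3 of 7.09 and 8.36. Its part in the differences below was not tested beyond the fit with brightness as a covariate.

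As background, glycolysis splits glucose into pyruvate and yields ATP without oxygen, and mature red cells, which lack mitochondria, depend on it. The pentose phosphate pathway draws glucose 6-phosphate off to make NADPH, which keeps glutathione reduced in red cells and feeds the oxidative burst of neutrophils. Pyruvate dehydrogenase passes pyruvate to the mitochondrial TCA cycle, which lymphocytes and monocytes run. RNA of whole blood comes from leucocytes, platelets and young red cells, so a lower level of an RNA can come from fewer cells of a type or from less RNA per cell, and these cannot be told apart here.

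Several genes were read by probes at different places in the same transcript record, and their signal and its spread between pigs differed between these places. LDHB, the heart-type subunit of lactate dehydrogenase, had 12 probes along a single record. The letters of its early, middle and late probes are given to show what each one read. The 7 probes that start at bases 323 to 972 share a frame, counted along the record, without a stop, and the 5 that start later do not. Only stops were sought, so this does not show that each probe keeps the coding frame of LDHB along its length. Of the other probes shown here and below, only the first 30 bases are printed. The capitals mark the 32 bases shared by the probes that start at 752 and 780.
LDHB start 323: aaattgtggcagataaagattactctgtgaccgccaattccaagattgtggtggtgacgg
LDHB start 752: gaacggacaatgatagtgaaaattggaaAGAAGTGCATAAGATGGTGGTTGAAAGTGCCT
LDHB start 780: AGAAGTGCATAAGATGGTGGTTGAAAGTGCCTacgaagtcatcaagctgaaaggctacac
LDHB start 972: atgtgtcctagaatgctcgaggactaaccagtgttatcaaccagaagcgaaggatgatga
LDHB start 1229: gtcaaagcccatgcttagtttaatgctttc

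For the 4 genes that passed the test between breeds, the beginnings of the probes behind the difference follow. PFKM and MDH1 each have a probe here that was called lower and a probe that was not. The MDH1 probes belong to different records, so their starts are not on a common scale.
PFKM start 1847: ggtgaatgtggaacatctggtgcaaaagat
PFKM start 2705: ctacttttaccacagtgacaaacaataact
ALDOC start 1570: caccagagcttactcatgctttggctacat
PDHB start 1376: ctttcactaaaaggataaggtatgaatgtg
MDH1 start 611: aaaggaagttggtgtttatgaagctgtgaa
MDH1 start 1003: gcttcttggtacaaatttgtgacagtttat

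In the Sscrofa11.1 assembly, RefSeq places PFKM at chr5:78475473-78525052, ALDOC at chr12:44823376-44827273, PDHB at chr13:40161519-40167502 and MDH1 at chr3:78247229-78263085. LDHB has a pair of entries, a short one of 1280 bases at chr2:12988754-12990033, and a longer one at chr5:51810932-51831218. Probes named LDHB could bind RNA of both.

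Of the 39 enzymes tested, 31 had a lower and 8 a higher mean in DD than in LW pigs, with a median log2 FC (DD minus LW) of -0.18. The median over all features was -0.04, and over the 12339 features with a gene symbol it was -0.07. Scaling each array to its 75th percentile moved the median of all features to 0.07, and 24 enzymes were then below 0, with a median of -0.09. No enzyme was called higher at an adjusted p of 0.05 in limma, against 11.4% of all features, and 4 were called lower, against 9.41% of all features. With either direction counted, 20.9% of all features were called. Of features with a gene symbol 10.4% were called higher, 11.2% lower and 21.6% either way. At an unadjusted p below 0.05, 1 enzyme was higher and 7 were lower, beside 12588 of all 34393 features in either direction. The enzymes called lower were PFKM and ALDOC of glycolysis, PDHB at the entry of pyruvate, and MDH1. MDH1 is a cytosolic malate dehydrogenase, listed here with the TCA cycle but not a step of the cycle itself. Without the 8 probes on the opposite strand, 37 enzymes were tested, 29 of them were lower in mean, the median was -0.21, and LDHA was called lower beside these 4, while 20.9% of all features were called. In all 39 the values of the breeds overlapped, and 0.657% of all features had values that did not.

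**Figure D1:**
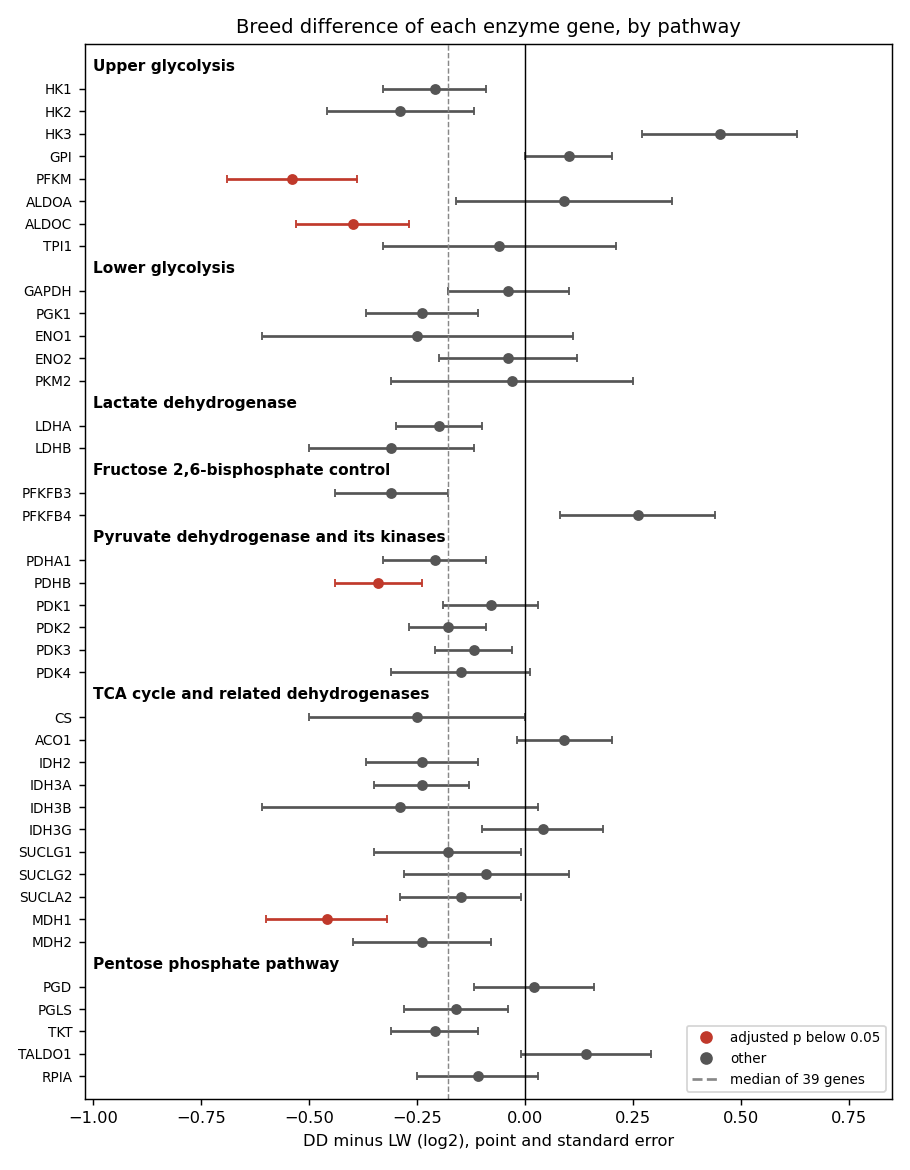
Difference between breeds for each of the 39 enzymes, grouped by pathway, as DD minus LW on the log2 scale with its standard error. Points left of 0 are lower in DD pigs, the 4 red points passed an adjusted p of 0.05, and the dashed line is the median of -0.18. The DD signal of ENO2 and PDK4 was not well above background, and the points of IDH3G and PGLS rest on probes of the opposite strand.

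The first steps of glycolysis were read by 8 of 10 listed genes, with a median log2 FC of -0.13. PFKM is the muscle-type subunit of phosphofructokinase, the main control point of glycolysis. Its chip-corrected log2 signal ran from 5.79 over a median of 6.29 to 7.01 in DD pigs. In LW pigs it ran from 6.44 over 6.81 to 7.39. The 7 lowest DD pigs lay under every LW pig, and the 3 others lay within the LW range. The log2 FC was -0.54 (SE 0.15, adjusted p = 0.0218, limma), a level at 68.8% of that in LW pigs. By chip it was -0.87, -0.61 and -0.07 in the order of chips 1 to 3.

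The 3 PFKM probes did not give the same size of difference. The probe that starts at 2705 had a log2 FC of -0.76 (SE 0.18, adjusted p = 0.00993, limma on single probes), and a probe of another record had -0.72 (SE 0.18, adjusted p = 0.0112). The probe that starts at 1847 had -0.15 (SE 0.18, adjusted p = 0.588). It was the dimmest of them, with a mean of 5.22, and stood well above background on 6 of 10 DD and 9 of 11 LW arrays. PFKL and PFKP, the liver- and platelet-type subunits, could not be read.

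ALDOC, the aldolase first known from brain, splits fructose 1,6-bisphosphate. The DD values ran from 9.81 over a median of 10.2 to 10.46, and the LW values from 9.95 over 10.70 to 11.01. DD pigs filled the lower part of the LW range, 2 of them lay under it, and the lowest LW pigs lay within the DD range. The log2 FC was -0.40 (SE 0.13, adjusted p = 0.0311), and it was -0.17, -0.45 and -0.61 on the 3 chips. The gene rested on a single probe. ALDOA, the main aldolase of muscle and red cells, ran from 9.28 to 12.01 in DD and from 10.16 to 11.52 in LW pigs, with medians of 11.27 and 10.96. Its log2 FC of 0.09 (SE 0.25, adjusted p = 0.814) was made of -0.12, -0.33 and 0.89 on the 3 chips.

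The hexokinases, which trap glucose in the cell by phosphorylation, had log2 FCs of opposite sign. HK3, the form of myeloid cells, had the highest log2 FC of the 39 enzymes. It ran from 12.22 over a median of 12.64 to 13.73 in DD and from 11.9 over 12.29 to 12.98 in LW pigs, and 4 DD pigs lay above every LW pig. The log2 FC of 0.45 (SE 0.18) was 0.53, 0.43 and 0.38 on the 3 chips, and HK3 was the only enzyme above 0 on each of them. It did not pass the test (adjusted p = 0.0751), and without DD_16 it did (adjusted p = 0.0498, limma). HK1, the ubiquitous form, had -0.21 (SE 0.12, adjusted p = 0.215). HK2, the insulin-responsive form, was dim, between 5.48 and 6.96 in DD and between 5.77 and 6.85 in LW pigs, with -0.29 (SE 0.17, adjusted p = 0.22).

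GPI, which turns glucose 6-phosphate into fructose 6-phosphate, ran from 8.92 over a median of 9.46 to 9.74 in DD and from 9.14 over 9.29 to 9.61 in LW pigs. Its log2 FC was 0.10 (SE 0.10, adjusted p = 0.473), and without its probe on the opposite strand it was 0 (SE 0.13, adjusted p = 0.984). That probe was itself called higher, with a log2 FC of 0.40 (SE 0.14, adjusted p = 0.0435), and it is no reading of GPI mRNA. The brightest GPI probe, which starts at 1918 and had a mean of 12.67, had -0.09 (SE 0.13, adjusted p = 0.619). TPI1, which interconverts the 2 triose phosphates, had -0.06 (SE 0.27, adjusted p = 0.892).

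**Figure D2:**
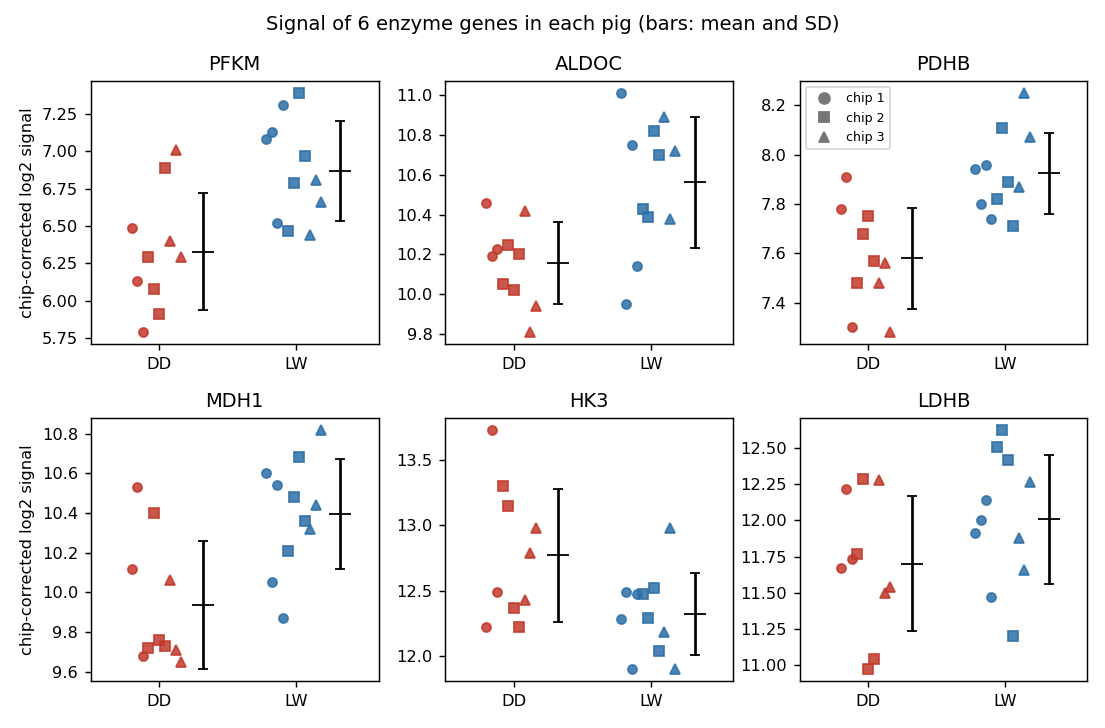
Chip-corrected log2 signal of 6 enzymes in each pig, with DD in red and LW in blue, the marker shape giving the chip, and a bar for the mean and SD of each breed. In PFKM and PDHB 7 of 10 DD pigs lie under all LW pigs, in MDH1 6 do, and HK3 has 4 DD pigs above all LW pigs.

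The lower steps of glycolysis were read by 5 genes, all with a mean lower in DD and none called, with a median log2 FC of -0.04. GAPDH, which makes NADH, had -0.04 (SE 0.14, adjusted p = 0.872). PGK1, which makes ATP, ran from 10.23 over a median of 10.84 to 11.22 in DD and from 10.64 over 11.14 to 11.46 in LW pigs. Of the DD pigs, 4 lay under every LW pig, and the log2 FC was -0.24 (SE 0.13, adjusted p = 0.188). ENO1, the common enolase, had -0.25 (SE 0.36, adjusted p = 0.644) with -1.12 on chip 2 and 0.60 on chip 3. PKM2, pyruvate kinase, had -0.03 (SE 0.28, adjusted p = 0.954), with -0.63 and 0.59 on the same chips. ENO2, the neuronal enolase, stood well above background on 0 DD arrays and 1 LW array.

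Lactate dehydrogenase, which turns pyruvate to lactate and back, is made of LDHA and LDHB subunits. LDHA had a log2 FC of -0.20 (SE 0.10, adjusted p = 0.157) and LDHB of -0.31 (SE 0.19, adjusted p = 0.246), so neither was called as an average of all its probes. Without the dim LDHA probe on the opposite strand, LDHA was called lower, with -0.30 (SE 0.09, adjusted p = 0.0294). LDHB ran from 10.97 over a median of 11.7 to 12.29 in DD and from 11.2 over 12 to 12.63 in LW pigs. Single probes of both genes were called lower. An LDHA probe ran from 11.92 over 12.38 to 12.74 in DD and from 12.55 over 12.75 to 12.96 in LW pigs, with -0.35 (SE 0.10, adjusted p = 0.022). The LDHB probe that starts at 1229 ran from 12.35 over 12.88 to 13.31 in DD and from 12.67 over 13.2 to 13.49 in LW pigs, with -0.35 (SE 0.12, adjusted p = 0.0387).

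PFKFB3 and PFKFB4 make and break fructose 2,6-bisphosphate, the activator of phosphofructokinase, and their log2 FCs had opposite signs. PFKFB3 ran from 8.37 over 8.78 to 9.34 in DD and from 8.67 over 9.03 to 9.47 in LW pigs, with a log2 FC of -0.31 (SE 0.13, adjusted p = 0.0839). PFKFB4 ran from 5.14 over 5.93 to 6.78 in DD and from 5 over 5.7 to 6.23 in LW pigs, with 0.26 (SE 0.18, adjusted p = 0.316). Neither passed the test, though PFKFB3 did with DD_06 or LW_15 left out.

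Pyruvate dehydrogenase and its kinases were lower in mean in DD pigs in 6 of 6 genes, with a median log2 FC of -0.17, and PDHB was called. PDHB encodes the beta subunit of the E1 enzyme of the complex. It ran from 7.28 over a median of 7.57 to 7.91 in DD and from 7.71 over 7.89 to 8.25 in LW pigs, and 7 DD pigs lay under every LW pig. The log2 FC was -0.34 (SE 0.10, adjusted p = 0.023), with -0.19, -0.26 and -0.62 on the 3 chips. Its probe that starts at 1376 had a mean of 10.25 and a log2 FC of -0.50 (SE 0.11, adjusted p = 0.00578). The other probe in the average, with a mean of 5.31, lies on the opposite strand.

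PDHA1, the alpha subunit of the same enzyme, ran from 6.77 over 7.35 to 7.6 in DD and from 7.02 over 7.49 to 7.8 in LW pigs. Its log2 FC was -0.21 (SE 0.12, adjusted p = 0.231). The kinases, which switch the complex off, had log2 FCs of -0.08 (PDK1), -0.18 (PDK2) and -0.12 (PDK3), and none was called. Without the opposite-strand probes of PDK1 and PDK2 these were 0.04 (PDK1) and -0.27 (PDK2), again not called. PDK2 was well above background on 1 DD and 4 LW arrays, and PDK4 on 0 DD arrays and 1 LW array.

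The TCA cycle and its related dehydrogenases were read by 11 of 14 listed genes, of which 9 had a lower and 2 a higher mean in DD pigs. Their median log2 FC was -0.24. MDH1, the cytosolic malate dehydrogenase of the malate-aspartate shuttle, was called lower. It ran from 9.65 over a median of 9.74 to 10.53 in DD and from 9.87 over 10.44 to 10.82 in LW pigs, and 6 DD pigs lay under every LW pig. The log2 FC was -0.46 (SE 0.14, adjusted p = 0.0262), a level at 72.7% of that in LW pigs, with -0.16, -0.53 and -0.72 on the 3 chips.

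All 5 MDH1 probes pointed down. The 3 brightest, of which those with a known place start at 995 and 1003, had log2 FCs of -0.53, -0.51 and -0.51 and were each called. These 3 read nearly the same stretch and are not separate readings. The 2 probes that start at 533 and 611 of another record had -0.42 (SE 0.22, adjusted p = 0.18) and -0.34 (SE 0.18, adjusted p = 0.182). MDH2, the mitochondrial form in the cycle itself, ran from 8.44 over 9.23 to 9.68 in DD and from 9 over 9.52 to 9.93 in LW pigs, with a log2 FC of -0.24 (SE 0.16, adjusted p = 0.274).

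IDH2, the NADP-dependent isocitrate dehydrogenase of mitochondria, was called on some of its probes and not on their average. As the average of 6 probes it ran from 10.04 over 10.65 to 11.38 in DD and from 10.58 over 10.84 to 11.16 in LW pigs, with -0.24 (SE 0.13, adjusted p = 0.188). Its 3 brightest probes were each called, with log2 FCs of -0.42, -0.45 and -0.47. They read nearly the same stretch, those with -0.42 and -0.47 having the same letters, so they are not separate readings. The probe that starts at 1753 ran from 11.8 over 12.03 to 12.92 in DD and from 12.12 over 12.61 to 12.82 in LW pigs. A dimmer probe of another record pointed up, with 0.26 (SE 0.14, adjusted p = 0.185), and was not called.

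The subunits of the NAD-dependent isocitrate dehydrogenase, a control point of the cycle, did not pass the test. IDH3A ran from 6.69 over 7.2 to 7.59 in DD and from 7.11 over 7.47 to 7.78 in LW pigs, with -0.24 (SE 0.11, adjusted p = 0.117). Of its 6 probes, 2 that read nearly the same stretch were called lower (-0.32 and -0.36). IDH3B had -0.29 (SE 0.32, adjusted p = 0.536) with -1.03 on chip 2 and 0.43 on chip 3, and IDH3G had no probe that reads its mRNA. CS, which makes citrate, ran from 7.44 over 9.02 to 9.58 in DD and from 8.14 over 9.04 to 9.74 in LW pigs, with -0.25 (SE 0.25, adjusted p = 0.491). ACO1, the cytosolic aconitase that also binds RNA when iron is low, had 0.09. Its brighter probe had -0.19 and its dimmer probe 0.36, and neither was called. The succinyl-CoA ligase subunits SUCLG1, SUCLG2 and SUCLA2 had -0.18, -0.09 and -0.15. For SUCLG1 it was -0.29 (SE 0.30, adjusted p = 0.497) without its opposite-strand probe. SUCLA2 was well above background on 2 DD and 7 LW arrays.

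The pentose phosphate pathway was read by 5 genes with a median log2 FC of -0.11, and none was called. PGD, which makes NADPH, had a log2 FC of 0.02 (SE 0.14, adjusted p = 0.924). The mRNA of PGLS, the lactonase before it, was not read, and without its probe the median of the pathway was -0.04. RPIA, the ribose 5-phosphate isomerase, had -0.11 (SE 0.14, adjusted p = 0.589). The sugar-exchanging enzymes TKT and TALDO1 had -0.21 (SE 0.10, adjusted p = 0.134) and 0.14 (SE 0.15, adjusted p = 0.527).

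The difference between breeds was not the same on the 3 chips. For chips 1 to 3 in order, the median over the 39 enzymes was -0.05, -0.27 and -0.07. On chip 1, 24 enzymes were rounded below 0, on chip 2 it was 33 and on chip 3 it was 23. Rounded to 2 decimals, 16 enzymes were below 0 on every chip, PFKM, ALDOC, PDHB and MDH1 among them, and 1 was above 0. In 12 enzymes the difference was below 0 on chip 2 and above 0 on chip 3. No test of the difference between chips was made.

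**Figure D3:**
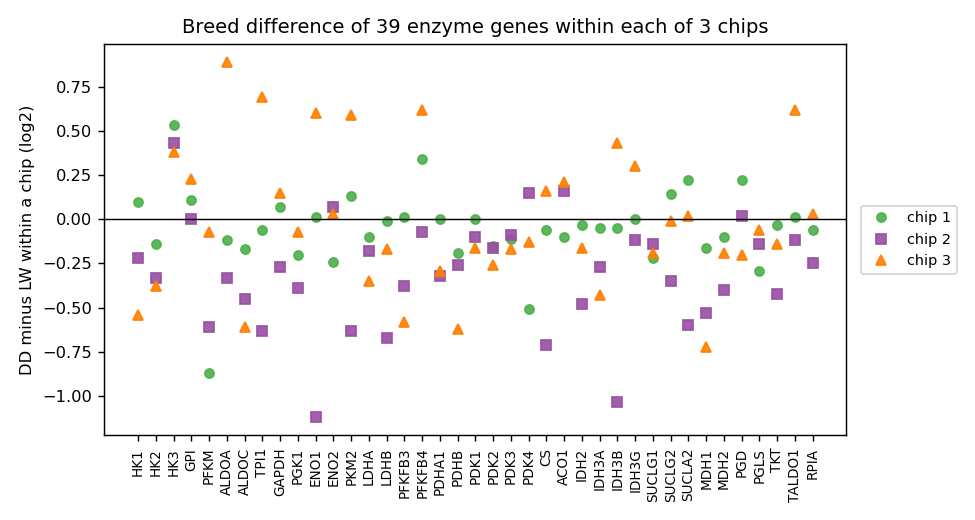
DD minus LW on the log2 scale within each of the 3 chips for the 39 enzymes, in pathway order. Chip 2 lies lowest and chip 3 highest for ENO1 (-1.12 and 0.60), IDH3B (-1.03 and 0.43), TPI1 (-0.63 and 0.69) and PKM2 (-0.63 and 0.59), while HK3 lies above 0 on all 3.

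The signal of an enzyme differed with where in its transcript the probe started, and in most cases so did its spread between pigs. Place and brightness of a probe went together and were not told apart. Signals of different probes are set side by side here as signals, not as amounts of RNA. Along the LDHB record the mean signal rose from 9.16 at start 323 to 11.99 at start 972 and 13.04 at start 1229. The SD between pigs within breeds fell from 1.21 to 0.39 and 0.25 at the same places. The probes that start at 752 and 780 share 32 of their 60 bases and had an SD of 0.77 and 0.76. The log2 FC stayed between -0.24 and -0.36 along the record, while its SE fell from 0.47 at start 323 to 0.12 at start 1229.

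**Figure D4:**
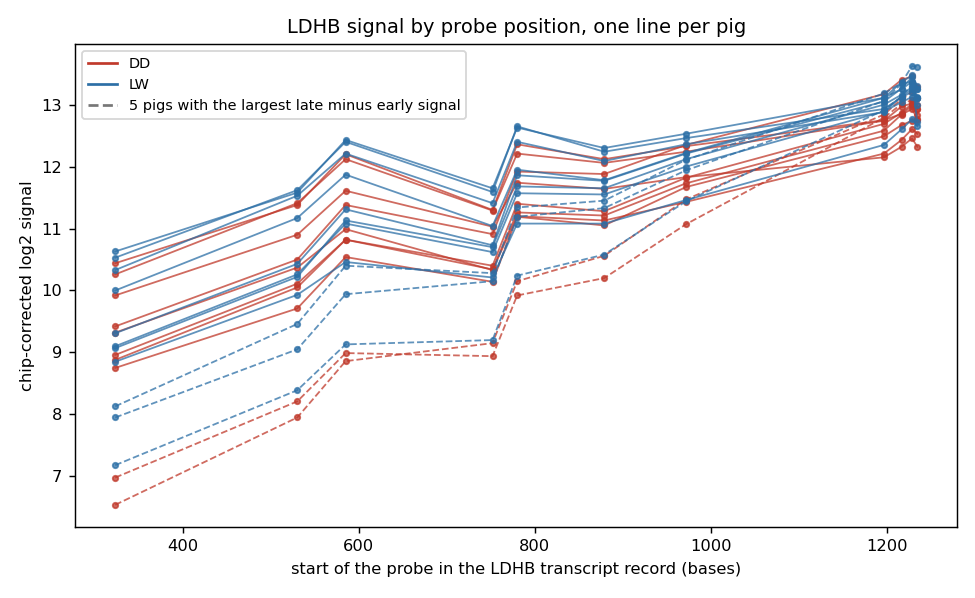
Chip-corrected log2 signal of the LDHB probes against the start of the probe in its record, with a line for each DD pig in red and each LW pig in blue. The lines spread over 6.54 to 10.63 at start 323 and draw together by start 1197, and the dashed lines are the 5 pigs with the largest late minus early signal.

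The early signal of LDHB was low relative to the late one in 9 of the 21 pigs, among them all 6 of chip 3. Without chip correction, the late probe (start 1235) exceeded the early probe (start 323) by 2.48 to 2.87 log2 units in the 12 pigs of chips 1 and 2 other than DD_13, DD_16 and LW_15. It exceeded it by 6.03 in DD_13, 6.64 in DD_16 and 6.03 in LW_15. On chip 3 the excess was 6.71 in LW_18, 6.54 in LW_22, 5.24 in DD_21, 4.43 in DD_23, 3.96 in DD_19 and 3.94 in LW_24. The late probe itself lay between 12.24 and 13.64 in all 21 pigs.

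Of the enzymes, 10 had probes at least 300 bases apart in the same record. In 9 of these 10 the later probe had the smaller SD and in all 10 it was the brighter. The median SD was 0.73 for the early and 0.28 for the late probes. Among 2038 transcripts of other genes with probes as far apart, the later probe had the smaller SD in 52.1% and was the brighter in 74.3%, with median SDs of 0.37 and 0.34. Where the later probe was at least as bright as in the enzymes (1415 transcripts), these shares were 57.4% and 88.2%. The enzyme transcripts were CS, GPI, IDH2, IDH3B, LDHB, MDH2, PDK1, PFKM, PGK1 and TPI1. PGK1 went from an SD of 0.80 at start 326 to 0.17 at start 1672, GPI from 0.65 at start 790 to 0.28 at start 1918, and IDH3B from 1.02 to 0.16. PFKM was the exception, with an SD of 0.44 at both places.

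Averaged over the 10 transcripts, the late minus early signal was 3.14 ± 0.75 (SD, n = 10) in DD and 3.16 ± 0.82 (SD, n = 11) in LW pigs. On chip 1 it ran from 2.46 to 2.66, on chip 2 from 2.45 to 4.59 and on chip 3 from 3.23 to 4.71. It was highest in LW_22, DD_16, LW_18, LW_15 and DD_13, which had 3.99 to 4.71 against 2.45 to 3.66 in the 16 other pigs. Over the 2038 transcripts of other genes these 5 pigs had 1.65 to 1.77 and the 16 others 1.22 to 1.58, so the same 5 pigs were highest there. DD_16 also held the lowest value of all pigs in 19 of the 39 enzymes.

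**Figure D5:**
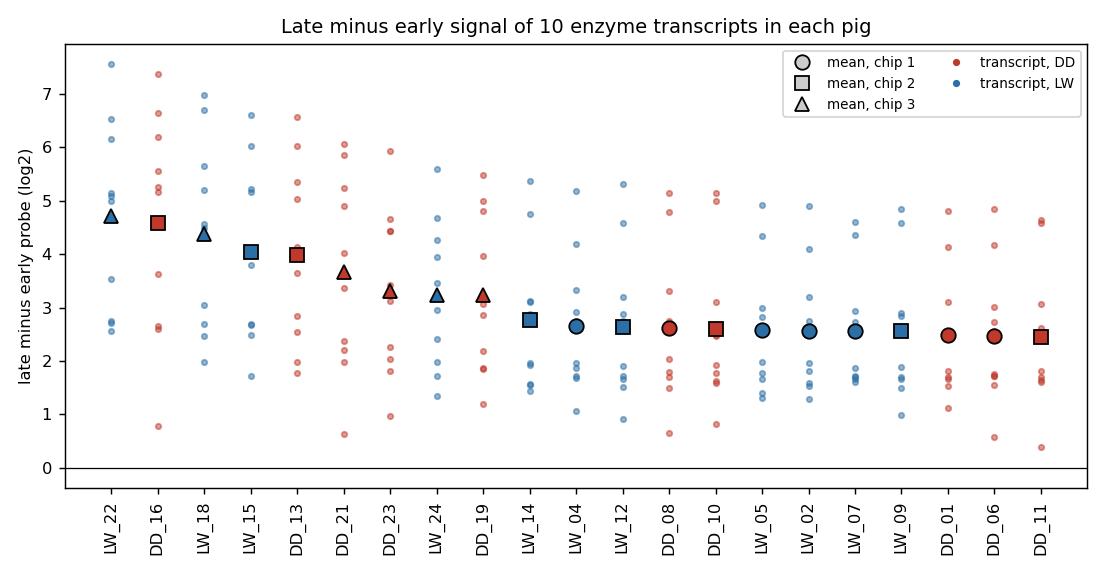
Late minus early probe signal on the log2 scale in each pig, sorted by the mean over 10 enzyme transcripts, with small points for the transcripts and large markers for the mean, shaped by chip. The 5 pigs at the left have means of 3.99 to 4.71 and belong to both breeds, and the 7 pigs of chip 1 lie between 2.46 and 2.66.

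The calls changed when these pigs, chosen after their values were seen, were left out. With DD_13, DD_16 and LW_15 left out, PFKM and PDHB were called lower and HK3 higher, while 21.2% of all features were called. With LW_18 and LW_22 left out too, 0 of the 39 enzymes were called in limma and 2.43% of all features, and the log2 FCs were -0.68 for PFKM, -0.35 for ALDOC, -0.34 for PDHB and -0.42 for MDH1. At an unadjusted p below 0.05, 6510 features passed in that fit. With array brightness as a covariate only PFKM was called, the median of the enzymes was -0.01, 22 of them lay below 0 and 2.15% of all features were called.

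Single pigs and chips moved the calls as well. PFKM was called with each of the 21 pigs left out in turn. ALDOC lost its call without DD_21, DD_23, LW_05, LW_14 or LW_18 (adjusted p up to 0.0873, limma), PDHB without LW_18 or LW_22 (up to 0.0563), and MDH1 without DD_21, DD_23 or LW_18 (up to 0.0591). Without LW_18, 1 enzyme was called lower, beside 6.28% of all features called. Without DD_06 it was 10, with HK2, LDHA, PFKFB3, IDH2, IDH3A and TKT added, beside 32.9% of all features. Without the 6 arrays of chip 3, 0 enzymes and 1.52% of all features were called in limma, while 4219 features had an unadjusted p below 0.05. The log2 FCs then were -0.75 for PFKM, -0.34 for ALDOC, -0.24 for PDHB and -0.39 for MDH1. The parts of probe position, brightness and breed in the differences were not tested further.

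Of the 121 probes of the enzymes, 100 had a log2 FC below 0, 19 above 0 and the others rounded to 0, with a median of -0.21. Of them 16 were called lower and 1, the opposite-strand GPI probe, higher, from 9 genes, against 21.7% of all single probes called in either direction. The called probes of LDHB, IDH2, IDH3A and MDH1 shared most of their letters within each gene and are not separate readings. Probes with the same 60 letters gave the repeatability of a reading. Over 7 such pairs in TPI1, LDHB, CS, IDH2 and IDH3A, the breed difference of the members of a pair differed by 0 to 0.1. From pig to pig, the difference between the signals of a pair had an SD of 0.03 to 0.44, with the largest in CS. The 3 identical LDHB probes each had -0.35 after chip correction.

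Other genes of the same pathways, listed by function, did not share a direction. Of 14 further genes of glycolysis and gluconeogenesis, 1 was called lower and 4 were called higher. Their median log2 FC was 0.15. Among those called higher, PGM1, which links glycogen to glucose 6-phosphate, had a log2 FC of 1.19 (SE 0.26, adjusted p = 0.00476), G6PC3, the ubiquitous glucose 6-phosphatase, 0.72 (SE 0.21, adjusted p = 0.0228) and PCK1, a gluconeogenic enzyme, 0.45 (SE 0.15, adjusted p = 0.042). PGAM2, the muscle phosphoglycerate mutase, had -1.08 (SE 0.24, adjusted p = 0.0073).

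Of 10 further TCA genes, OGDHL was called higher (0.33, adjusted p = 0.0333) and SDHD, a subunit of succinate dehydrogenase, lower (-0.28, adjusted p = 0.0278, with 1 of its 7 probes on the opposite strand). Of 4 further pentose phosphate genes, PRPS2, which makes the ribose donor of nucleotides, was called lower (-0.28, adjusted p = 0.0498). Of 6 carriers, SLC2A6 was called higher (0.70, adjusted p = 0.00342) and the lactate carrier SLC16A1 lower (-0.40, adjusted p = 0.0383). Of 4 further genes of the pyruvate dehydrogenase complex and its entry none was called. Of the transcription factors HIF1A, ARNT, MYC and EPAS1, only EPAS1 was called, lower (-0.45, adjusted p = 0.00784).

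Markers of blood cell types were counted beside the 20.9% of all features called. Of 14 erythroid markers, 0 were called lower in DD pigs and 8 were called higher, of which GATA1 was read only by a probe on the opposite strand. Their median log2 FC was 0.65, and within chips 1 to 3 in order the median was 0.23, 0.39 and 1.18. Their mean level ran from 9.49 to 10.74 in DD and from 9.14 to 10.35 in LW pigs. HBB, a globin chain, had 17.6 in DD and 17.3 in LW pigs and was not called. Of 9 T cell markers all had a mean lower in DD, with a median of -0.19, and CD3D (-0.58) and CD3G (-0.64) were called. The mean T cell level ran from 8.17 to 9.37 in DD and from 8.82 to 9.6 in LW pigs. Of 10 granulocyte markers (median 0.07) and 6 B cell markers (median 0.11) none was called. Of 7 monocyte markers CD163 (-0.72) and CLEC7A (-1.01) were called lower, while 4 had a higher mean in DD, and the median was 0.03. Of 8 cytotoxic cell markers CTSW (-0.66) was called lower, 2 had a higher mean, and the median was -0.31. Of 8 platelet markers PPBP was called lower, 3 had a higher mean, and the median was -0.1. No marker level was at 0 on this scale. Their part in the enzyme differences was not tested.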

How the data were processed

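Blood RNA of 21 pigs was read on a one-colour Agilent array (60305 probes besides controls). The authors extracted spot intensity values with Agilent Feature Extraction 10.7.3.1, corrected them for background, normalized them by quantiles and deposited the result as log2 values in a matrix. Of 24 animals hybridised, the authors removed 3 arrays. The deposited log2 matrix gave all main values, and the intensity files gave names, starts, sequences, brightness and flags for signal well above background. The number of arrays limits the precision.

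The 25% of probes with the lowest mean were left out, and kept probes of a gene name, in capitals or not, were averaged. limma 3.58.1 (R 4.3.3, statmod 1.5.0) fitted breed and chip, with the sow as a random block (duplicateCorrelation, consensus correlation -0.11) and Benjamini-Hochberg adjustment over all features. Sow and chip came from the study's description of its animals. Values shown by pig had the chip effect removed. The fit was tested on simulated data. No deposited pair of arrays held identical values. No probe was saturated.

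Members, lists and the rule for named genes (called members, members with conflicting probes, sister isoforms, and the next 10 by log2 FC) were chosen with earlier results of these data known. Probes were put on the opposite strand by reading both translations against the known proteins, after the values were seen, for the enzymes and the other genes named only. Sequences are from the deposited files, and gene positions from RefSeq. Other settings were another background correction or scaling, other filters, probe choices and names, no sow or chip term, a chip or pig left out, brightness as covariate and other limma options. Single results of some listed genes are not reported here.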

Additional observations from a re-analysis of the deposited data

Results flagged for a closer look

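ENO1 had a DD pig far from the other 9. DD_16 had a chip-corrected log2 signal of 9.11, and the next DD pig had 11.53, a gap of 0.63 of the DD range. Of the 39 enzymes, this was the only one in which a DD pig stood so far out, where chance alone flags about 1 in 20 groups. The LW group of 11 was not examined in this way. DD_16 is on chip 2, and ENO1 rests on a single probe.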

How the results depend on the processing

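No paired analysis was possible because the DD and LW pigs are different animals from different litters, with no pairing between the breeds. The 4 calls, PFKM, ALDOC, PDHB and MDH1, were made again from the scanner intensity with a normexp offset of 0, with a filter on signal well above background, with extended names, without the sow block, with trend and robust fitting, with the latest probe of each record and with features that have a gene symbol only. Of all features, 14.2% were called without the sow block, against 20.9% in the main fit and 20.8% to 30.9% in the others of these settings. An offset of 50 added LDHA and PFKFB3, names in capitals or leaving out probes on the opposite strand added LDHA, no filter on low probes lost ALDOC, and leaving out chip 1 lost PFKM and added PFKFB3. The share of all features called was 22.4% with an offset of 50, 21% with names in capitals and 20.9% without opposite-strand probes. It was 9.34% with no filter and 22.4% without chip 1. Alternatives that used probe position, probe strand, capital names, symbols only or groups of left-out pigs were chosen after seeing the data.

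The enzymes called lower were 7 with the brightest probe of a gene (LDHB, IDH2 and IDH3A added), 2 with scaling to the 75th percentile (PDHB and MDH1, with HK3 as 1 enzyme called higher), and 1 without the chip term, without chip 2, with brightness as a covariate or with the late minus early signal as a covariate (PFKM each time). They were 0 without chip 3, 2 without DD_13, DD_16 and LW_15 (with 1 called higher), and 0 without these and LW_18 and LW_22. Leaving out a pig gave 1 to 10 called lower and 0 to 1 called higher, beside 6.28% to 32.9% of all features called. Of all features, 22.6% were called with the brightest probe, 20.7% with scaling to the 75th percentile and 5.43% without the chip term. The share was 14% without chip 2, 2.15% with brightness and 8.43% with the late minus early signal. It was 1.52% without chip 3, 21.2% without DD_13, DD_16 and LW_15, and 2.43% with LW_18 and LW_22 left out too.

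Over all features, 7171 were called, and 4894 were called without the sow block. The count was 4397 with no filter on low probes, 1866 without the chip term, 524 without chip 3, 739 with brightness as a covariate, 2899 with the late minus early signal, 2903 of 12339 features with a symbol, and 835 without the 5 pigs. Leaving out a pig gave 2159 (without LW_18) to 11304 (without DD_06). These are counts of calls, and the cause of their changes was not tested.

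The log2 FC changed sign for GPI with its brightest or its latest probe (-0.09 in both). With the brightest probe it also did so for TPI1 (0.08), PKM2 (0.04) and ACO1 (-0.19), and PGD was rounded to 0. The other settings were followed gene by gene for only a part of the 39 enzymes. Among those followed, the log2 FC changed sign with brightness as a covariate for PFKFB3 (0.01), LDHB (0.03), LDHA (0), PDHA1 (0.04) and ALDOA (-0.10). ALDOA also changed sign without chip 3 (-0.31), with the late minus early signal (-0.26), without DD_10 (-0.02) and without LW_18 (0), and over all single pigs left out it ran from -0.02 to 0.30. The limit of these data is that brightness, chip and probe position move with the signal of many enzymes, and that 10 and 11 pigs of 11 litters carry the test.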
